A study of Homo sapiens with 5 samples.

Results

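The genes described here make cholesterol and fatty acids, control that synthesis or export its products. They were chosen by name from a list of 44 genes. A gene was measured where a probe set had exactly 1 symbol in the array annotation and that symbol was on the list. Where a gene had more than 1 such probe set, the one with the highest mean over the 5 arrays was kept. That left 40 members of 18417 genes on the array: 16 of the sterol pathway, 13 of fatty acid synthesis, elongation, desaturation and activation, 5 that control the sterol regulatory element-binding proteins (SREBPs), 2 of sterol transport and 4 of the liver X receptor (LXR) and efflux group. FDFT1, HSD17B7, ACSL3 and NR1H2 had no such probe set and were not analysed here.

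The arrays compared clones of Nalm6, a human cell line established from acute lymphoblastic leukaemia of B-cell precursors, that expressed an shRNA (short hairpin RNA) against MondoA (3 clones, 1 array each) with clones that expressed a nonsense shRNA (2 clones, 1 array each). All 5 clones came from the same line and were grown in medium with 20% heat-inactivated serum and 200 mg/dl glucose, and each clone stands for itself, so a difference between groups can also be one between clones. MondoA, encoded by MLXIP, is a glucose-responsive transcription factor, and the series asks by its title how it acts on metabolism, differentiation and survival. MLXIP RNA did not mark the groups: it read 6.42, 6.47 and 6.29 in MondoA shRNA arrays 1, 2 and 3, against 6.42 in each control array (difference -0.03 ± 0.06 SE, limma adjusted p = 0.959), so the arrays are named by their labels. All values are deposited log2 levels made by RMA (robust multi-array average), differences are MondoA shRNA minus control shRNA, and 1 log2 unit is a doubling of signal.

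Cells make cholesterol from acetyl-CoA through mevalonate, squalene and lanosterol, and they make fatty acids from the same acetyl-CoA through malonyl-CoA. When membrane sterol is scarce, SCAP carries SREBPs from the endoplasmic reticulum to the Golgi, where they are cut to release transcription factors that switch on both pathways, with SREBP-2 (from SREBF2) mainly on the sterol genes and SREBP-1 (from SREBF1) mainly on the fatty acid genes. INSIG1 and INSIG2 hold SCAP back when sterol is plentiful. LXRs, bound by oxidised sterols, switch on export genes such as ABCA1 and ABCG1. Growing leukaemia cells need both lipids for their membranes.

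The promoters below belong to members whose levels differed widely between arrays, plus SREBF2, the sole member with a match to the longer sterol response element. Each run gives the 250 bases upstream of the annotated start, from RefSeq on build GRCh38.p14, 5′ to 3′ on the strand of the gene, and capitals mark matches to the motifs searched. HMGCS1 lies at chr5:43313413-43313662 on the minus strand, MSMO1 at chr4:165327419-165327668 on the plus strand, SREBF2 at chr22:41832855-41833104 on the plus strand, SCD at chr10:100346983-100347232 on the plus strand and ABCA1 at chr9:104928156-104928405 on the minus strand.
HMGCS1: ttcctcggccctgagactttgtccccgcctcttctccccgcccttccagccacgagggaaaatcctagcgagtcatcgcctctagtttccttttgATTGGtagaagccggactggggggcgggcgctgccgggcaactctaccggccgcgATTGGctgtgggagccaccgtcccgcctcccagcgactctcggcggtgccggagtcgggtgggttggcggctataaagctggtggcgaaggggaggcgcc
MSMO1: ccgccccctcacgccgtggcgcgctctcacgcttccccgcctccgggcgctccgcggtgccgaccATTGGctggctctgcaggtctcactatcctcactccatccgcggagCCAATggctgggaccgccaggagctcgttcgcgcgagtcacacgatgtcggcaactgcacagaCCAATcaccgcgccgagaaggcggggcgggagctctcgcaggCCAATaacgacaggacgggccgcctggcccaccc
SREBF2: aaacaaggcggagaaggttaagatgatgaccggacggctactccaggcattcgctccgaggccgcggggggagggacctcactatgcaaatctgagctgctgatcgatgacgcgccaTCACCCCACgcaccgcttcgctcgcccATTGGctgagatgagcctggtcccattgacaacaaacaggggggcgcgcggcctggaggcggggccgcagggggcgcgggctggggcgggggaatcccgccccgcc
SCD: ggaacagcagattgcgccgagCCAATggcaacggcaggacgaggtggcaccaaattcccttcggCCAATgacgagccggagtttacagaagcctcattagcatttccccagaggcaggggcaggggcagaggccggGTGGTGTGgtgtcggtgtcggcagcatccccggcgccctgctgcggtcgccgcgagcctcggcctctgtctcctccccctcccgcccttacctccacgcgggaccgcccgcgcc
ABCA1: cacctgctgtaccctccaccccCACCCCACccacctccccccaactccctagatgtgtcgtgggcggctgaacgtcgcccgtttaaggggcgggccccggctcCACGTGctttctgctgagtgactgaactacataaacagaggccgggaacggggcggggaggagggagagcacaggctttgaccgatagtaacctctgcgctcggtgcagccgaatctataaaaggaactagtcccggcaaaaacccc

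The motifs were the sterol response element TCACNCCAC, its shorter core CACNCCAC (contained in the longer one), the E-box CACGTG and the inverted CCAAT box ATTGG, each read on both strands. RefSeq gave a promoter for 36 of the 40 measured members, and 27305 promoters served for comparison. ATTGG was found in 11 of 14 sterol pathway promoters (78.6%) and in 5 of 12 fatty acid promoters (41.7%), beside 33.0% of all promoters. At least 2 copies stood in 8 of the 14 sterol promoters (57.1%), beside 10% of all promoters. MSMO1 held 4 copies and HMGCS1 held 2. TCACNCCAC was found in 1 of 36 members, SREBF2, beside 0.875% of all promoters, and CACNCCAC in 5 of 36 (13.9%), which were INSIG1, SREBF2, SCD, ACSL4 and ABCA1, beside 4.72%. CACGTG, the core of the element that MondoA binds, was found in 5 of 36 (13.9%), which were SC5D, INSIG1, SCAP, ELOVL5 and ABCA1, beside 6.49% of all promoters. Among the 14239 promoters of genes on the array, 34.4% held ATTGG and 11.5% held at least 2 copies. The shares there were 0.871% for TCACNCCAC, 4.82% for CACNCCAC and 7.86% for CACGTG. All motif counts are matches of letters in a short window and do not show binding.

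The label of the cells was checked first. All 11 measured B-precursor markers lay above the median gene level of 4.15, with means up to 10.4 (MME), whereas 0 of 7 myeloid and 0 of 5 hepatocyte and adipocyte markers did. Of T and NK cell markers 1 of 8 lay above that level (NKG7, mean 6.46), and of erythroid markers 1 of 3 (KLF1, mean 4.66). No detection calls were used, so that level serves as a guide to dim genes: 38 of the 40 members lay above it, and ACACB and MYLIP lay below. MondoA shRNA arrays 1 and 2 stood apart from the other arrays in opposite directions over the brighter genes. Of the 7450 genes with a mean above 5, 38.9% were lowest in MondoA shRNA array 1 and 40.1% were highest in MondoA shRNA array 2, and the median gene of this kind differed from the mean of the other 4 arrays by -0.07 in array 1 and by 0.05 in array 2. Results are therefore given with and without MondoA shRNA array 1, which was singled out after the values were seen. The part of this general shift in the members' values was not tested, but the same counts over all genes stand beside them.

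The main pattern lay between single arrays rather than between groups. Each clone had 1 array, so clone and array cannot be told apart. In RNA from whole cultures, fewer cells with a transcript and less of it per cell cannot be told apart. In MondoA shRNA array 1 the members of both branches were low together, and 16 of 40 members read at least 0.5 below the mean of the other 4 arrays, beside 1.99% of all genes and 3.92% of genes above 5. All 16 had a mean above 5, where 32 members lay. In MondoA shRNA arrays 2 and 3 and in control arrays 1 and 2, the members at least 0.5 lower by the same measure numbered 0, 0, 0 and 2, beside 0.76%, 0.608%, 0.348% and 0.7% of all genes. MondoA shRNA array 2 was the highest of the 5 for 19 members (23.6% of all genes) and read at least 0.5 above the mean of the other 4 for 8 (3.41%). MondoA shRNA array 3 was the highest for 12 members (14.0% of all genes) and read at least 0.5 above for 6 (0.44%). For array 3 the shares of genes above 5 were 16.95% and 0.765%. Control arrays 1 and 2 read at least 0.5 above for 0 members, beside 1.16% and 0.608% of all genes. With the arrays quantile normalised again the count in MondoA shRNA array 1 was 10, beside 2.09% of genes above 5. MondoA shRNA array 1 was the lowest of the 5 for 25 of 40 members (22.2% of all genes, 38.9% of genes above 5). It was the highest for 2, ABCA1 and MYLIP (17.1% and 7.97%).

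**Figure D1:**
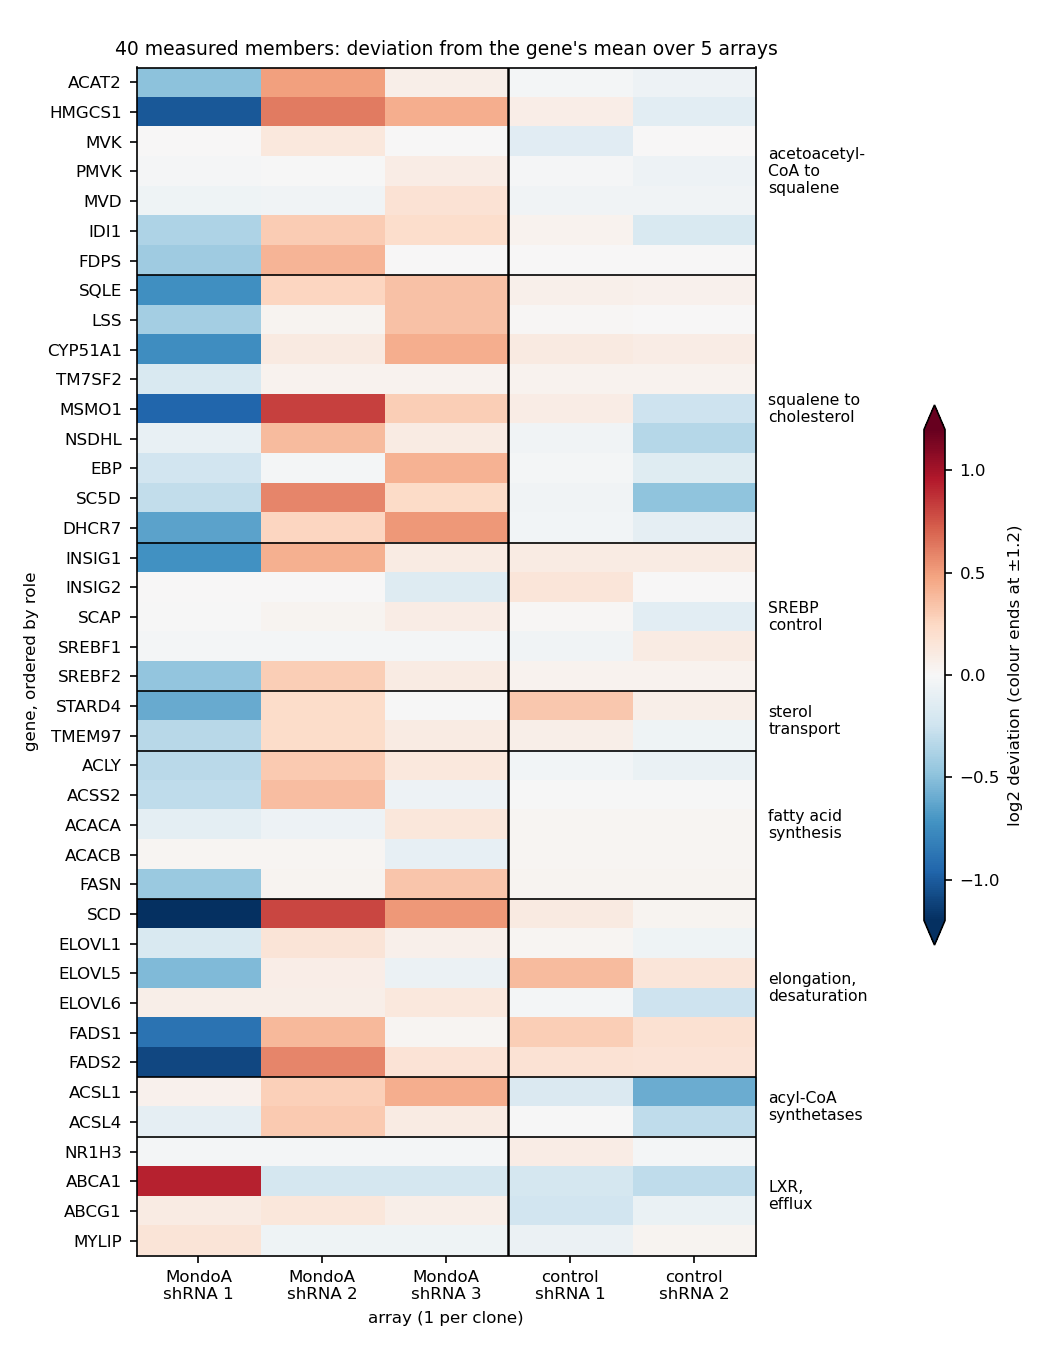
Deviation of each of the 40 measured members (rows, ordered by role) from its own mean over the 5 arrays (columns, 1 clone each), in log2 units, blue below and red above the mean. MondoA shRNA array 1 lies below the mean for 32 of 40 members, among them 15 of 16 sterol and 10 of 13 fatty acid genes. It lies above the mean for 8, by the most for ABCA1. In that array 9304 of all 18417 genes and 5367 of the 7450 genes above 5 lay below their own mean.

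The first steps of the sterol pathway showed this at their entry. HMGCS1, which makes HMG-CoA, read 6.99, 8.63 and 8.44 in MondoA shRNA arrays 1, 2 and 3, against 8.08 and 7.88 in control arrays 1 and 2. The control arrays thus lay between MondoA shRNA array 1 below and arrays 2 and 3 above, and array 1 differed from the mean of the other 4 by -1.27, a signal 2.41 times lower. ACAT2, the cytosolic thiolase that supplies acetoacetyl-CoA, had the same order, at 7.18, 8.16 and 7.74 in MondoA shRNA arrays, against 7.65 and 7.61 in control arrays. IDI1, the isomerase of isopentenyl diphosphate, read 8.02, 8.70 and 8.60 in MondoA shRNA arrays, against 8.43 and 8.22 in control arrays. It too was low in array 1 and above both control arrays in arrays 2 and 3. FDPS, which makes farnesyl diphosphate, read 7.32, 8.15 and 7.75 in MondoA shRNA arrays, against 7.75 in each control array. The groups overlapped in all 4 genes. A further 2 probe sets carry FDPS together with other symbols and were left out, and signal shared with such copies was not tested. MVK, PMVK and MVD, which carry mevalonate to isopentenyl diphosphate, varied little: their ranges over the 5 arrays were 0.27, 0.15 and 0.22, and array 1 lay at 0.01, -0.02 and -0.06 from the mean of the other 4.

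Of the 9 measured genes between squalene and cholesterol, all 9 were below their own mean in MondoA shRNA array 1, beside 5367 of the 7450 genes above 5. In 7 of the 9 that array was the lowest, beside 38.9% of genes above 5. MSMO1, which oxidises the methyl groups removed from the sterol ring, read 5.35, 7.12 and 6.60 in MondoA shRNA arrays, against 6.39 and 6.05 in control arrays. Array 1 differed from the mean of the other 4 arrays by -1.19, and arrays 2 and 3 lay above both control arrays. SQLE, the squalene epoxidase, read 6.94, 7.94 and 8.03 in MondoA shRNA arrays, against 7.74 and 7.73 in control arrays. CYP51A1, the lanosterol demethylase, read 6.42, 7.27 and 7.60 in MondoA shRNA arrays, against 7.27 and 7.25 in control arrays. Array 1 differed from the other arrays by -0.92 in SQLE and by -0.93 in CYP51A1. The second CYP51A1 probe set had the same low array, at 5.37, 6.29 and 6.50 in MondoA shRNA arrays, against 6.29 and 6.61 in control arrays.

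DHCR7, which catalyses the last reduction to cholesterol, read 7.58, 8.48 and 8.74 in MondoA shRNA arrays, against 8.19 and 8.11 in control arrays. LSS, which closes the sterol rings, read 6.43, 6.86 and 7.19 in MondoA shRNA arrays, against 6.84 and 6.83 in control arrays. EBP, a sterol isomerase, read 7.82, 8.03 and 8.47 in MondoA shRNA arrays, against 8.03 and 7.90 in control arrays. In all 3 genes array 1 was lowest and array 3 highest. SC5D, a sterol desaturase, read 5.33, 6.22 and 5.87 in MondoA shRNA arrays, against 5.59 and 5.15 in control arrays. NSDHL, the dehydrogenase that works with MSMO1, read 6.34, 6.81 and 6.53 in MondoA shRNA arrays, against 6.38 and 6.09 in control arrays. In SC5D and NSDHL control array 2 was the lowest, and MondoA shRNA array 1 lay between the control arrays. TM7SF2, a sterol reductase, differed by at most 0.22 between any arrays.

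Among the genes that control SREBPs, INSIG1 and SREBF2 followed the enzymes. INSIG1, itself an SREBP target, read 6.73, 7.89 and 7.56 in MondoA shRNA arrays, against 7.56 in each control array. SREBF2 read 6.63, 7.40 and 7.21 in MondoA shRNA arrays, against 7.15 in each control array. Array 1 was lowest and array 2 highest in both. SREBF1 was flat, at 5.15 in each MondoA shRNA array, against 5.12 and 5.27 in control arrays. INSIG2 and SCAP had ranges of 0.30 and 0.21, and array 1 differed from the mean of the other 4 arrays by 0.01 and -0.01. The sterol transporter gene STARD4 read 6.10, 6.93 and 6.69 in MondoA shRNA arrays, against 7.02 and 6.77 in control arrays. TMEM97, which encodes a sterol-responsive membrane protein, read 8.47, 9.03 and 8.90 in MondoA shRNA arrays, against 8.87 and 8.75 in control arrays. Both transport genes were lowest in array 1.

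**Figure D2:**
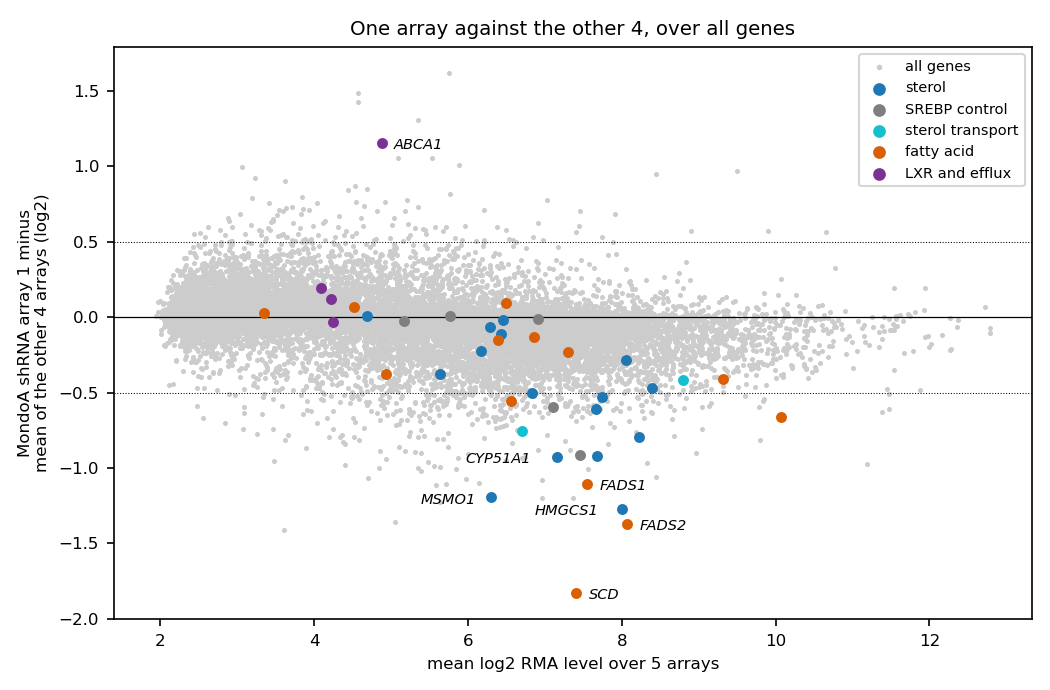
Each gene's level in MondoA shRNA array 1 minus its mean in the other 4 arrays (vertical, log2) against its mean level over the 5 arrays (horizontal, log2 RMA), with all 18417 genes in grey, the members coloured by branch and dotted lines at 0.5 and -0.5. SCD lies lowest of all genes at -1.83, and ABCA1 lies at 1.16.

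In the fatty acid branch the desaturases stood out. SCD, which makes oleate and palmitoleate by putting a double bond into saturated acyl chains, read 5.95, 8.21 and 7.93 in MondoA shRNA arrays, against 7.52 and 7.45 in control arrays. Array 1 differed from the mean of the other 4 by -1.83, a signal 3.56 times lower, and by this measure SCD was the lowest of all 18417 genes. FADS2, the first desaturase of polyunsaturated fatty acids, read 6.97, 8.65 and 8.23 in MondoA shRNA arrays, against 8.25 and 8.23 in control arrays. FADS1, the desaturase that follows it, read 6.67, 7.94 and 7.57 in MondoA shRNA arrays, against 7.85 and 7.74 in control arrays. Array 3 lay at the control level in FADS2 and below it in FADS1. In the same order of all genes FADS2 had rank 3, HMGCS1 rank 5, MSMO1 rank 9 and FADS1 rank 11. Of the 10 lowest genes 4 were members, or 10% of the members. At a cut of 11, which falls on FADS1 itself, 5 were members, or 12.5% of the members. Of the 100 lowest genes 10 were members, or 25% of the members. Beside these counts, the members make up 40 of the 18417 genes.

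ACLY, which makes acetyl-CoA from citrate, read 8.99, 9.64 and 9.45 in MondoA shRNA arrays, against 9.29 and 9.24 in control arrays. FASN, the fatty acid synthase, read 6.12, 6.60 and 6.90 in MondoA shRNA arrays, against 6.60 in each control array. ACSS2, which makes acetyl-CoA from acetate, read 4.63, 5.31 and 4.88 in MondoA shRNA arrays, against 4.93 in each control array. All 3 were lowest in array 1. ACACA, the cytosolic acetyl-CoA carboxylase, had a range of 0.26 with array 1 lowest, and ACACB, its mitochondrial relative, had one of 0.12 at a dim level. ELOVL5, an elongase of polyunsaturated chains, read 9.55, 10.15 and 9.999 in MondoA shRNA arrays, against 10.45 and 10.22 in control arrays. All MondoA shRNA arrays lay below both control arrays, with array 1 lowest. ELOVL6, an elongase of saturated chains, read 6.56, 6.56 and 6.62 in MondoA shRNA arrays, against 6.46 and 6.24 in control arrays. These groups did not overlap either, in the other direction. ELOVL1, an elongase of very long chains, had a range of 0.34 and was lowest in array 1.

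The acyl-CoA synthetases, which activate fatty acids, did not share the low array. ACSL1 read 4.57, 4.80 and 4.95 in MondoA shRNA arrays, against 4.34 and 3.92 in control arrays. Every MondoA shRNA array lay above both control arrays. ACSL4, which prefers arachidonate, read 6.76, 7.18 and 6.96 in MondoA shRNA arrays, against 6.86 and 6.56 in control arrays. Control array 2 was lowest in both genes.

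The efflux gene ABCA1 ran the other way. ABCA1, which moves cholesterol out of the cell, read 5.80, 4.67 and 4.67 in MondoA shRNA arrays, against 4.67 and 4.57 in control arrays. MondoA shRNA array 1 was 1.16 above the mean of the other 4 arrays, rank 6 from the top among all 18417 genes, and the other 4 arrays lay between 4.57 and 4.67. It was the sole member at least 0.5 higher in that array, beside 0.711% of all genes. MYLIP, a ubiquitin ligase for lipoprotein receptors that LXRs switch on, was highest in array 1 by a small margin at 4.25, 4.04 and 4.04 in MondoA shRNA arrays, against 4.02 and 4.12 in control arrays. ABCG1, a second sterol exporter, read 4.32, 4.36 and 4.29 in MondoA shRNA arrays, against 3.99 and 4.14 in control arrays, so that all MondoA shRNA arrays lay above both control arrays. NR1H3, which encodes LXR-alpha, read 4.22 in each MondoA shRNA array, against 4.33 and 4.22 in control arrays. The means of these 4 genes over the 5 arrays ran from 4.10 (MYLIP) to 4.88 (ABCA1), beside the median gene level of 4.15.

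**Figure D3:**
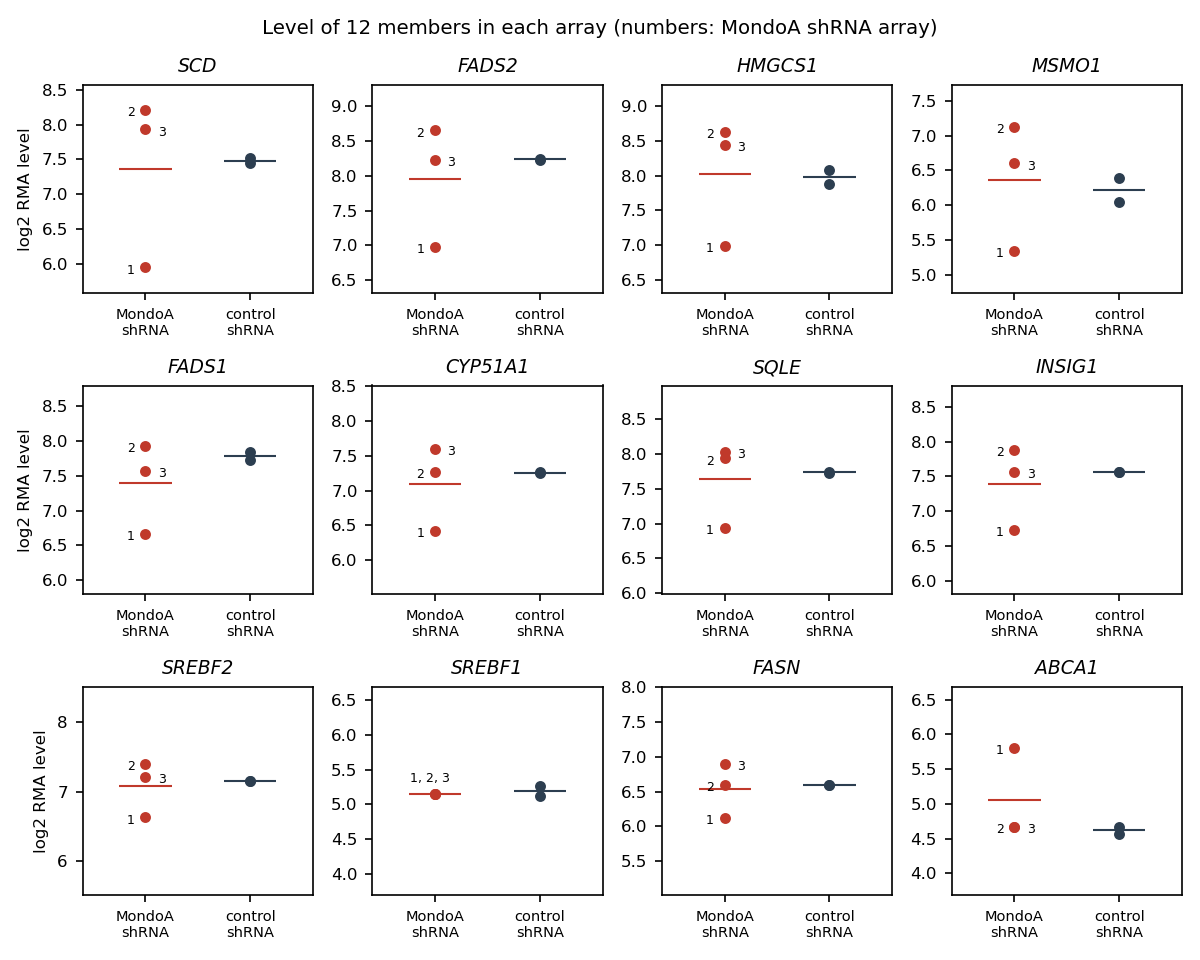
Levels (log2 RMA) of 12 members in the MondoA shRNA arrays (red, numbered) and the control shRNA arrays (dark), with lines at the group means; each vertical axis spans 3 log2 units. In SCD, FADS2, HMGCS1, MSMO1, FADS1, CYP51A1, SQLE, INSIG1, SREBF2 and FASN array 1 is the lowest point, in ABCA1 it is the highest, and SREBF1 is flat.

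The branches were then set side by side over the 5 arrays. The 16 sterol genes had median deviations from their own 5-array means of -0.39, 0.26 and 0.22 in MondoA shRNA arrays 1, 2 and 3, against 0.00 and -0.06 in control arrays 1 and 2. The 13 fatty acid genes had -0.30, 0.29 and 0.13 in MondoA shRNA arrays, against 0.02 and 0.02 in control arrays. Over all genes above 5 the same medians were -0.06, 0.04 and 0.00 in MondoA shRNA arrays, against 0.01 and -0.01 in control arrays. The medians of both branches thus had the same order of array 1 low and arrays 2 and 3 high. Within the fatty acid branch, the 6 elongation and desaturation genes did not have array 3 above the control arrays. Their medians were -0.71, 0.27 and 0.09 in MondoA shRNA arrays, against 0.14 and 0.09 in control arrays. In array 1, 15 of 16 sterol genes and 10 of 13 fatty acid genes lay below their own mean, beside 5367 of the 7450 genes above 5. The fatty acid count was close to that share. In array 3, 16 of 16 sterol and 10 of 13 fatty acid genes lay above their own mean, beside 3836 of those 7450 genes. The difference between the branches was not tested, since genes read on the same arrays are not replicates.

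In 8 of 16 sterol genes, 3 of 13 fatty acid genes and 13 of 40 members in all, MondoA shRNA array 1 lay below both control arrays while arrays 2 and 3 lay above both, beside 2.35% of all genes and 5.21% of genes above 5. Arrays 2 and 3 alone lay above both control arrays in 11 of 16 sterol genes, 6 of 13 fatty acid genes and 21 of 40 members, beside 9.84% of all genes and 18.1% of genes above 5. The median SD among the 3 MondoA shRNA arrays was 0.40 for the sterol branch and 0.31 for the fatty acid branch, against 0.05 for each branch among the 2 control arrays. Over all genes above 5 it was 0.13 among MondoA shRNA arrays and 0.05 among control arrays. Between MondoA shRNA arrays 2 and 3 alone the median SD was 0.19 for the sterol and 0.14 for the fatty acid branch, beside 0.10 for all genes above 5.

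The comparison of the groups gave no call. In limma (two-sided, Benjamini-Hochberg adjustment over 18417 genes), 0 of 40 members passed an adjusted p of 0.05, beside 0.0% of all genes, and the members' adjusted p ran from 0.833 to 1. At an unadjusted p under 0.05 stood 3 of 40 members, all higher in MondoA shRNA arrays, beside 3.73% of all genes (687 genes). These were ACSL1, which differed by 0.64 ± 0.20 SE (95% interval 0.07 to 1.21), ABCG1, which differed by 0.26 ± 0.06 SE (interval 0.09 to 0.42), and ELOVL6, which differed by 0.23 ± 0.08 SE (interval 0.00 to 0.46). Each had a limma adjusted p of 0.833, so none passed. Without control array 2, which leaves 1 control array, the difference of ELOVL6 was 0.12. Over its alternatives that kept both control arrays its limma adjusted p ran from 0.635 to 0.922. All MondoA shRNA arrays lay above both control arrays in these 3 members, beside 4.85% of all genes, and below both in 1 member, ELOVL5, beside 5.18%. ELOVL5 differed by -0.44 ± 0.23 SE (limma adjusted p = 0.833). The count of 3 became 0 without MondoA shRNA array 2 and 5 without MondoA shRNA array 1.

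The median difference was 0.07 for the sterol branch, with 11 members above 0 and 5 below. It was -0.03 for the fatty acid branch, with 6 above and 7 below. Over all genes it was 0.00, with 9046 above and 7585 below. SCD had MondoA shRNA and control means of 7.36 ± 1.24 (SD, n = 3) and 7.48 ± 0.05 (SD, n = 2), and its difference of -0.12 carried a 95% interval from -2.58 to 2.35. HMGCS1 averaged 8.02 ± 0.90 in MondoA shRNA arrays (SD, n = 3) and 7.98 ± 0.14 in control arrays (SD, n = 2), with an interval from -1.77 to 1.84. Intervals this wide leave differences of either sign undetectable with these arrays. In the narrow-ranged genes the intervals were shorter, from -0.06 to 0.19 for PMVK, -0.19 to 0.10 for SREBF1 and -0.30 to 0.24 for ACACA.

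Leaving out MondoA shRNA array 1 moved the median of both branches upward. That array was singled out after the values were seen and was low for these members, so the direction of the move was fixed by the choice. Without array 1 the median difference was 0.27 for the sterol branch, with 15 of 16 genes above 0. It was 0.17 for the fatty acid branch, with 10 of 13 above 0. Beside these stood 0.00 for all genes and 0.03 for genes above 5, of which 4430 of 7450 lay above 0 and 2661 below. HMGCS1 differed by 0.55, MSMO1 by 0.64, SC5D by 0.67, DHCR7 by 0.46, SCD by 0.59 and SQLE by 0.25. At an unadjusted p under 0.05 stood 5 of 40 members, beside 3.84% of all genes (707 genes), which were HMGCS1, SQLE, DHCR7, SCD and ACSL1. None of the members passed the adjusted threshold in that limma fit, where each of these 5 had an adjusted p of 0.6605, and 0 genes passed over all genes. FADS1 (-0.04), STARD4 (-0.08) and ELOVL5 (-0.26) were among the 9 members below 0. The efflux gene ABCA1 moved the other way, with a difference of 0.05 without array 1 and of 0.43 with it. With MondoA shRNA array 2 left out instead, the median difference was -0.02 for the sterol and -0.06 for the fatty acid branch. In that limma fit 0 members stood at an unadjusted p under 0.05, beside 1018 of 18417 genes.

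**Figure D4:**
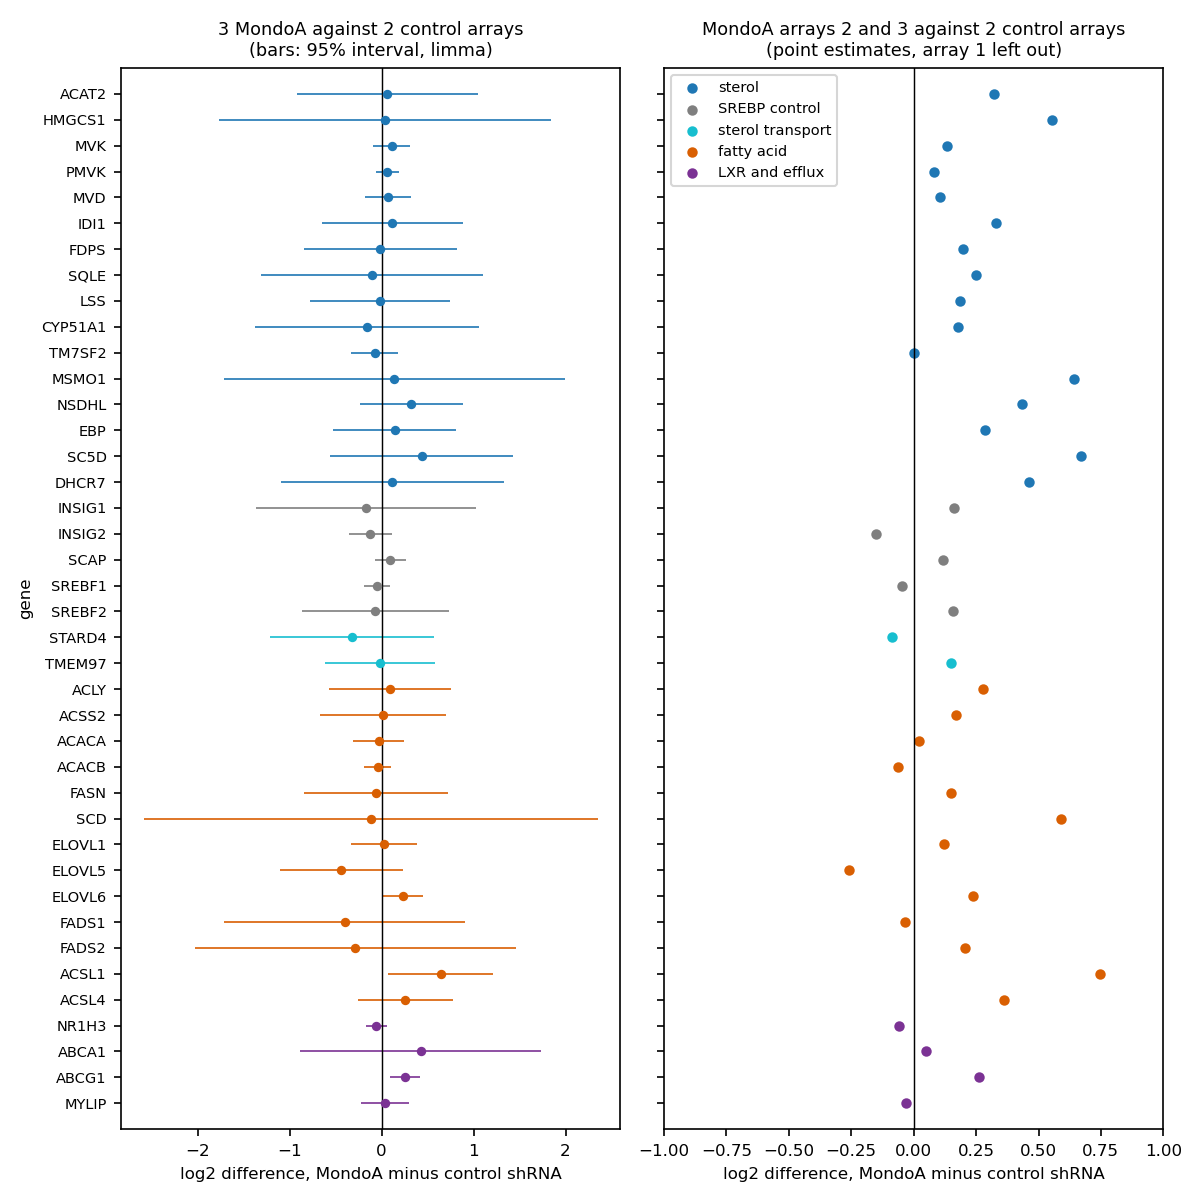
Log2 difference, MondoA shRNA minus control shRNA, of the 40 members: on the left over all arrays with 95% intervals from limma, on the right without MondoA shRNA array 1, coloured by branch. On the left the points lie between -0.44 and 0.64 with intervals that mostly cross 0. On the right 31 of 40 points lie above 0, beside 8664 of all 18417 genes and 4430 of the 7450 genes above 5.

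Further genes of these pathways were taken from a list of other sterol, fatty acid and LXR genes. Of 11 other sterol genes 8 were lowest in MondoA shRNA array 1, among them ERG28, which scaffolds sterol enzymes, at 8.05, 9.34 and 8.83 in MondoA shRNA arrays, against 8.60 and 8.57 in control arrays. Of 24 other fatty acid genes 5 were lowest there and of 8 other LXR and efflux genes 1 was, beside 22.2% of all genes and 38.9% of genes above 5. At least 0.5 below the mean of the other 4 arrays stood 2 of 11, 0 of 24 and 0 of 8 genes. Beside these stood 1.99% of all genes and 3.92% of genes above 5, and the lists include genes with means below 5. None of these further genes passed the adjusted threshold. In limma 1 of 11, 2 of 24 and 1 of 8 genes had an unadjusted p under 0.05, each with an adjusted p of 0.833. They were NPC1, the lysosomal cholesterol exporter (difference -1.11), the elongase gene ELOVL2 (-0.31), the phosphatidate phosphatase gene LPIN1 (0.41) and the lipoprotein receptor gene SCARB1 (0.41). NPC1 read 5.96, 6.25 and 6.56 in MondoA shRNA arrays, against 7.49 and 7.24 in control arrays, so its groups did not overlap. In MondoA shRNA arrays TXNIP, the best known target of MondoA, read 8.91, 8.91 and 8.75, against 9.03 and 8.89 in control arrays, and did not single out array 1.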

How the data were processed

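The arrays were Affymetrix whole-transcript arrays hybridised with biotin-labelled target from 200 ng of RNA per clone, per the labels. The deposited values are log2 expression per probe set, made by the authors with RMA in Affymetrix Expression Console 1.1, per the submitters' processing notes; the log base is not stated and was taken as 2, as RMA gives. RMA corrects background, equalises the arrays' distributions and combines probes by median polish, so that values repeat between arrays (54.0% of genes have 3 or more equal values) and the spread of such genes is small. Of 33297 probe sets 19460 had exactly 1 symbol, 19429 of which matched a RefSeq gene (GRCh38.p14) by Entrez number, and the brightest probe set per gene left 18417 genes. No filter on low values was used. The number of arrays limits the precision. The p-values measure the spread between arrays of 1 clone each, in which clone and array cannot be told apart.

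Groups followed the titles. All genes were fitted with limma 3.58.1 in R 4.3.3 (linear model, empirical Bayes, two-sided, Benjamini-Hochberg over 18417 genes, threshold 0.05), and the step was tested on simulated data. Every member is described; values in every array are given for members at an unadjusted p under 0.05, an absolute difference of at least 0.3 or a range of at least 0.5 above the median gene level, and for SREBF1, SREBF2, FASN and INSIG1. MYLIP and NR1H3 are given in full outside that rule, after their values were seen. Members, lists and tests were chosen with earlier results of these data known. Alternatives left out each array, used the replicate number as a block (nothing in the labels links clones of one number), normalised or centred again, filtered dim or tied genes, averaged probe sets, changed or dropped the moderation, or weighted arrays with statmod 1.5.0.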

Additional observations from a re-analysis of the deposited data

How the results depend on the processing

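Across 396 alternative values for the 29 members that met the rule for full values (MYLIP and NR1H3 are not counted), 34 had the opposite sign of the main value, in 19 members. None passed the adjusted threshold in a fit that kept both control arrays. With the replicate number as a block, which sets MondoA shRNA array 3 aside and pairs clones that share no more than a number, HMGCS1 was -0.17, EBP -0.0379 and DHCR7 -0.12, and 2 members stood at an unadjusted p under 0.05. With array weights (0.50 for MondoA shRNA array 1, 0.41 for array 2 and 3.06 for array 3) SQLE was 0.15, LSS 0.22, CYP51A1 0.16, SREBF2 0.0073, TMEM97 0.0466, ACSS2 -0.0347, FASN 0.17 and SCD 0.23. With 1 array left out the differences ran from -0.17 to 0.32 for ACAT2, -0.27 to 0.55 for HMGCS1, -0.0115 to 0.33 for IDI1, -0.22 to 0.20 for FDPS, -0.30 to 0.25 for SQLE, -0.19 to 0.19 for LSS, -0.41 to 0.18 for CYP51A1, -0.25 to 0.64 for MSMO1, -0.0379 to 0.28 for EBP and -0.12 to 0.46 for DHCR7. They ran from -0.42 to 0.16 for INSIG1, -0.12 to 0.0241 for SREBF1, -0.23 to 0.16 for SREBF2, -0.13 to 0.15 for TMEM97, -0.0421 to 0.28 for ACLY, -0.17 to 0.17 for ACSS2, -0.24 to 0.15 for FASN, -0.54 to 0.59 for SCD and -0.64 to 0.20 for FADS2.

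Over all genes limma called 0 (687 at an unadjusted p under 0.05). A new quantile normalisation gave 2 calls, centring the arrays gave 2, dropping the moderation gave 3, and the 4301 untied genes gave 60. Leaving out 1 array gave 0 to 752 calls, with 752 without control array 1 and 454 without control array 2. Members called were 0 to 1 with 1 array left out (SREBF1 without control array 1 and NR1H3 without control array 2, each with equal MondoA shRNA values) and 0 under the other alternatives. Members at an unadjusted p under 0.05 were 3, 1 without moderation, 1 among the 21 untied members, and 0 to 5 when 1 array was dropped. The median difference ran from -0.02 to 0.27 for the sterol and from -0.06 to 0.17 for the fatty acid branch with 1 array left out. The count of 16 members at least 0.5 lower in MondoA shRNA array 1, with alternatives chosen after seeing the data, was 10 after a new quantile normalisation, which moved the median of genes above 5 in that array from -0.07 to 0.03, and 10 of 21 without tied values, where fewer members are left. SCD remained the lowest of all genes in array 1 under all 5 of these alternatives. Where no cause is named, the cause was not tested.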
